A study of Mus musculus with 3 samples.

Results

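Alveolar type 1 (AT1) cells were selected from 3 mouse lung single-cell libraries by the genes listed above 0 in each cell. A cell was counted as AT1 when at least 3 of the 8 genes Ager, Rtkn2, Hopx, Aqp5, Akap5, Clic5, Spock2 and Pdpn (the gate genes) were above 0 and none of Ptprc, Foxj1, Scgb1a1, Slc34a2, Cdh5, Col1a1 and Msln was, which mark leukocytes, ciliated, club, alveolar type 2 (AT2), endothelial, fibroblast and mesothelial cells. This gave 206 AT1 cells of 19622 cells in all: 75 of 6372 in the CONV library, 53 of 6983 in the CONV AsiDNA library and 78 of 6267 in the FLASH library. The members were chosen by their expression, so the values of the 8 gate genes and of the 7 excluding genes describe the choice and are not findings.

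The libraries came from wild-type female C57BL6/J mice whose age the labels give as 8 to 9 weeks. All 3 mice had received 13 Gy to the whole thorax, and the lungs were taken 5 months later. The CONV mouse was irradiated at a conventional dose rate, the FLASH mouse at an ultra-high dose rate, and the CONV AsiDNA mouse at the conventional dose rate after intraperitoneal injections of AsiDNA, a DNA decoy that inhibits DNA repair, at 100 mg/kg on 2 consecutive days and at 200 mg/kg on the day of irradiation. With 1 mouse and 1 library per condition there was no test between conditions and no p-value: every difference below is one between 3 libraries, in which condition, mouse and library preparation cannot be told apart. Unirradiated lungs were not analysed here, so no value has an untreated reference.

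AT1 cells are the thin, flat epithelial cells that cover nearly all of the gas-exchange surface of the lung. They share a basement membrane with the capillaries, carry many caveolae (small invaginations of the plasma membrane), move salt and water, and signal to the capillary endothelium through Vegfa. AT2 cells, the cuboidal surfactant producers, are their progenitors and pass through an intermediate state with high Krt8 and p53 activity when they replace AT1 cells after injury.

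The deposited values were natural logs of 1 plus a whole number, called adjusted counts here because their totals per cell were already brought to a similar level. The median AT1 cell held 3637, 3800 and 3885 adjusted counts and 1335, 1497 and 1391 genes in CONV, CONV AsiDNA and FLASH, within a range of 1871 to 5912 counts. Levels are given as the adjusted counts of a gene per 1000000 adjusted counts, all genes summed over the AT1 cells of a library (adjusted CPM), and as the percentage of AT1 cells above 0, whose 95% interval is the exact Clopper-Pearson one. Unless said otherwise, 3 values in a row are those of CONV, CONV AsiDNA and FLASH, in this order. The intervals cover the sampling of cells within a library only, not the spread between mice. A log2 ratio was taken after adding 50 adjusted CPM to each side.

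The label was checked against marker genes. All 17 AT1 markers on the list that the selection did not use were above 0 in at least 10% of AT1 cells in every library. Cldn18, the lung tight junction claudin, was above 0 in 90.7%, 92.5% and 94.9% of AT1 cells, at 4098, 3474 and 3777 adjusted CPM. Emp2, a membrane protein of AT1 cells, stood at 4170, 5880 and 5830 adjusted CPM, and Gprc5a, a retinoic acid-induced receptor, at 1984, 1881 and 2126. An unsupervised clustering of all cells gave 1 AT1-like cluster of 332 cells, which held 204 of the 206 members, and 105 of its other cells were above 0 for Ptprc, the pan-leukocyte gene. Barcodes shared between libraries numbered 16, 9 and 17 for the 3 pairs, and 2 of the members carried one.

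Markers of most other lung cell types were listed at 0 in the AT1 cells. The selection had already removed cells with Ptprc, Foxj1, Scgb1a1, Cdh5, Col1a1 or Msln above 0, so this absence was partly fixed beforehand. All markers of mesothelial cells (5 genes), lymphatic endothelium (5), lymphocytes (6), neutrophils (3) and dividing cells (3) were at 0 in all 3 libraries, as were 8 of 9 endothelial markers, Pecam1, Kdr and Cldn5 among them, 7 of 8 fibroblast markers and 5 of 6 smooth muscle and pericyte markers. Of 7 macrophage and monocyte markers, Cd68, Marco, C1qa and Chil3 were at 0, and the summed level of all 7 was 217, 166 and 306 adjusted CPM, in 7, 21 and 37 AT1 cells. Tppp3, the single ciliated marker found, is taken up below. Of 6 club markers, Cyp2f2 was above 0 in 1 CONV cell, at 124.5 adjusted CPM, and Aldh1a1 in 5 CONV AsiDNA cells, at 58.8. Erythroid markers were above 0 in 1 FLASH cell, at a sum of 80.2. The 13 AT2 markers were a further exception. Summed over all 13, they reached 9597, 150 and 2355 adjusted CPM, and 42, 12 and 10 AT1 cells held at least 1 of them. Single cells made up most of the first and last sum: the 1 CONV cell with Sftpc supplied 7042 and the 1 FLASH cell with it 2319. Without these 2 cells the sums were 2615, 150 and 37.0 adjusted CPM.

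The number of gate genes per cell was lower in the CONV library. Of its 75 AT1 cells, 39 (52.0%, interval 40.2 to 63.7%) had 7 or 8 of the 8 gate genes above 0, against 42 of 53 (79.2%, 65.9 to 89.2%) in CONV AsiDNA and 67 of 78 (85.9%, 76.2 to 92.7%) in FLASH. All 8 were above 0 in 28.0%, 58.5% and 66.7% of the AT1 cells. Cells with 3 to 6 gate genes numbered 36, 11 and 11, and their median totals of 2633, 2346 and 2286 adjusted counts lay below those of the cells with 7 or 8, at 3813, 3956 and 3930. At the edge of the rule, exactly 3 gate genes were found in 5, 2 and 1 cells and Ager was one of the 3 in all of these. Exactly 2 were found in 13, 8 and 8 otherwise eligible cells just outside it, and Ager was above 0 in 1, 4 and 2 of them.

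**Figure D1:**
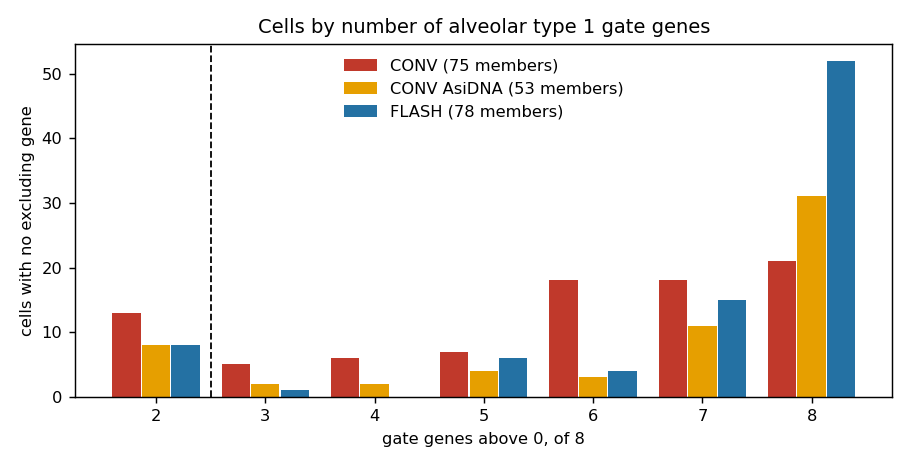
Number of cells (y axis) by the number of gate genes above 0 (x axis, 2 to 8) in each library, where cells with 2 lie just outside the selection. The CONV cells spread over 3 to 8 gate genes, with 21 cells at 8, while 31 CONV AsiDNA and 52 FLASH cells reached 8.

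Among the gate genes, Ager, which encodes the AT1 membrane receptor RAGE, was the most abundant, with 10601, 17639 and 17799 adjusted CPM. Rtkn2, a gene typical of AT1 cells, was above 0 in 68.0%, 86.8% and 92.3% of cells at 980, 2298 and 2399 adjusted CPM. Hopx, a homeodomain cofactor, stood at 3909, 8820 and 8870. Spock2, a matrix proteoglycan, was above 0 in 53.3%, 84.9% and 87.2% of cells. Akap5, a kinase anchor, differed in order, with 1326, 1272 and 1772 adjusted CPM. Over the 8 gate genes CONV stood at a median log2 ratio of -0.94 to CONV AsiDNA and -0.79 to FLASH, and CONV AsiDNA at 0.02 to FLASH.

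**Figure D2:**
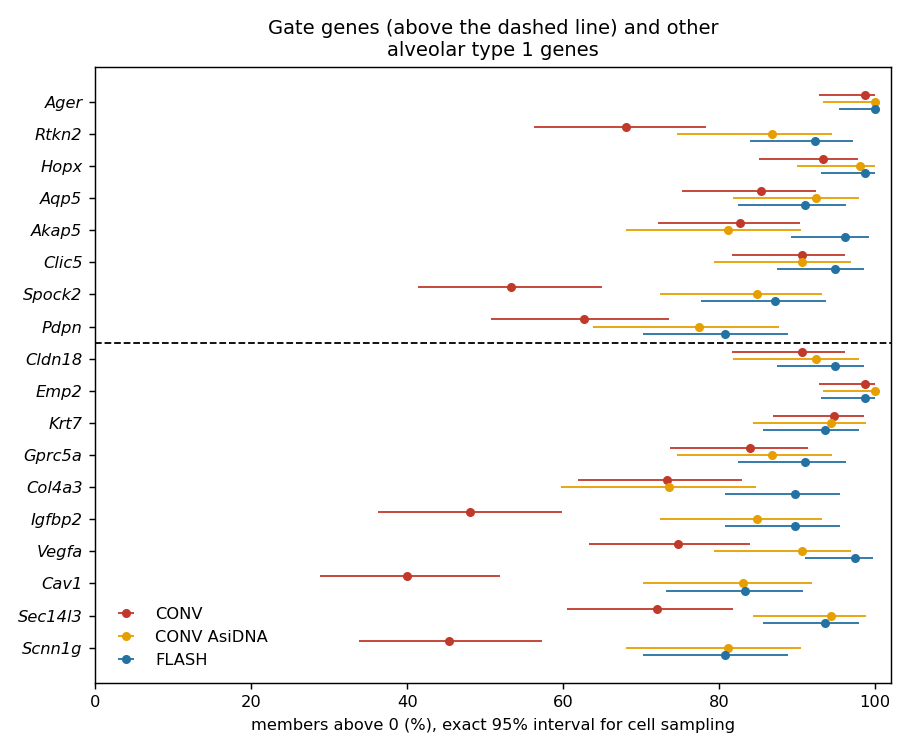
Percentage of AT1 cells above 0 (x axis, with exact 95% intervals over cells) for the 8 gate genes, above the dashed line, and for 10 genes the selection did not use, below it. Cldn18, Emp2, Krt7 and Gprc5a lie close together in the 3 libraries, while Igfbp2 (48.0% in CONV) and Cav1 (40.0% in CONV) are above 0 in 83.0% of cells or more in both other libraries.

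Of all cells, AT1 cells made up 1.18% (interval 0.927 to 1.47%) with CONV, 0.759% (0.569 to 0.992%) with CONV AsiDNA and 1.24% (0.985 to 1.55%) with FLASH. The CONV AsiDNA value was the lowest, and its interval overlapped those of both others. AT1 cells with 7 or 8 gate genes were 0.612% (0.436 to 0.836%), 0.602% (0.434 to 0.812%) and 1.07% (0.830 to 1.36%) of cells. The CONV interval overlapped that of FLASH and the CONV AsiDNA interval lay apart from it. This stricter count was made with the gate genes, so it describes the choice and no order of the libraries is read from it. Per 100 AT2 cells there were 25.8, 16.4 and 20.6 AT1 cells. AT2 cells were those with at least 3 of 8 AT2 genes and Slc34a2 above 0 and none of the other excluding genes. The selection passed over 117 of 192, 123 of 176 and 99 of 177 cells with at least 3 gate genes because an excluding gene was above 0, among which Slc34a2, the AT2 phosphate transporter, was above 0 in 71, 63 and 45 and Ptprc in 29, 15 and 46. Flat AT1 cells are easily lost in dissociation, and a difference in their share of cells cannot be told apart from one in their recovery.

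The most abundant transcript in all 3 libraries was the nuclear RNA Malat1, at 187618, 168816 and 258897 adjusted CPM. Among protein-coding genes outside the gate, Prdx6, a peroxiredoxin with phospholipase activity, reached 4021, 5917 and 5301. The genes that stood farthest above AT2 cells included S100a6, a calcium-binding protein, at 6207, 5527 and 3591 adjusted CPM in AT1 cells. They also included Timp3, an inhibitor of matrix proteases, at 1784, 3405 and 3657, and Pmp22, a membrane protein related to Emp2, at 824, 1849 and 1805. S100a6 was highest in CONV and lowest in FLASH, and Timp3 and Pmp22 were lowest in CONV.

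To compare the libraries, a gene was called in 1 library when it was at least 2-fold above, or at least 2-fold below, both other libraries and the interval of its share of AT1 cells lay apart from both. Of 22954 genes, 4122 had a mean share of at least 10%, of which 4096 were above 0 in every library and were compared. In the CONV library 91 genes were called above both others (2.22% of those compared) and 56 below (1.37%). The CONV AsiDNA library had 1 gene called above (0.0244%) and 2 below (0.0488%), the FLASH library 5 above (0.122%) and 11 below (0.269%). The same CONV values enter both of its comparisons, so these are not independent, and a filter on the share of cells keeps low genes partly because they are high in 1 library. Over all 4096 genes CONV had a median log2 ratio of -0.08 to CONV AsiDNA and 0.06 to FLASH, with 1500 genes lowest and 1493 highest in CONV.

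A pair of caveolar genes, Cav1 and Cavin2, were lower in the CONV AT1 cells. Cav1 (chr6:17306335-17341452, GRCm38), the coat protein of caveolae, was above 0 in 30 of 75 CONV cells (40.0%, interval 28.9 to 52.0%), 44 of 53 CONV AsiDNA cells (83.0%, 70.2 to 91.9%) and 65 of 78 FLASH cells (83.3%, 73.2 to 90.8%). Its level was 265, 1411 and 1185 adjusted CPM, a log2 ratio of -2.21 against CONV AsiDNA and -1.97 against FLASH. Cavin2, which shapes the caveolar membrane, was at 482, 1614 and 1630 adjusted CPM with log2 ratios of -1.65 and -1.66. Both were called, while Cavin1, the core cavin, was at 265, 380 and 281 and was not. The call of Cav1 was kept under all 13 alternatives, and that of Cavin2 under 10, lost with Slc34a2-positive cells admitted, with 7 or 8 gate genes and without the surfactant-positive cells. Of 11 caveolar genes 7 were compared, of which 5 were lowest and 2 highest in CONV, and their median log2 ratios were -1.06 against CONV AsiDNA and -0.53 against FLASH. Over all genes 1.37% were called below and the medians were -0.08 and 0.06. In endothelial cells, taken as cells with Cdh5 above 0 and Ptprc at 0 and called Cdh5 cells below (366, 445 and 472 cells), Cav1 stood at 1182, 1494 and 1572 adjusted CPM and Cavin2 at 1183, 2088 and 2277. CONV was thus the lowest library in both cell types for both genes. Cav1 was at 0 in the AT2 cells of all 3 libraries.

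With gene models, mitochondrial and ribosomal protein genes left out, Igfbp6 and Igf1r were among the 5 genes farthest below in CONV. Igfbp2 was called nearer to the 2-fold limit. Igfbp6 (chr15:102144362-102149511), a binding protein with preference for IGF2, was above 0 in 10 of 75 CONV cells (13.3%), 43 of 53 CONV AsiDNA cells (81.1%) and 62 of 78 FLASH cells (79.5%). Its level was 100, 1507 and 1123 adjusted CPM, with log2 ratios of -3.37 and -2.96. Igf1r (chr7:67952827-68233668), the IGF1 receptor, was above 0 in 18.7%, 60.4% and 75.6% of cells at 96.4, 577 and 598 adjusted CPM, with log2 ratios of -2.10 and -2.15. All 3 libraries had AT1 cells without Igf1r, but a cell with it was the exception in CONV and the rule in the others. In the remaining cells of the libraries Igf1r was at 60.4, 75.9 and 79.8 adjusted CPM, within a narrower range than in AT1 cells. Igfbp2 (chr1:72824503-72852474), a binding protein secreted by mature AT1 cells, was above 0 in 48.0%, 84.9% and 89.7% of cells at 1659, 3571 and 5436 adjusted CPM, with log2 ratios of -1.08 and -1.68. It was at 0 in all AT2 cells and all Cdh5 cells. In cells with 7 or 8 gate genes Igfbp2 was at 2782, 3869 and 5911 adjusted CPM, so the log2 ratio of CONV to CONV AsiDNA narrowed to -0.47 there and the gene was no longer 2-fold apart from that library.

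Vegfa (chr17:46016993-46032369, minus strand), the vascular endothelial growth factor that AT1 cells supply to the capillaries, was above 0 in 56 of 75 CONV cells (74.7%, interval 63.3 to 84.0%), 48 of 53 CONV AsiDNA cells (90.6%, 79.3 to 96.9%) and 76 of 78 FLASH cells (97.4%, 91.0 to 99.7%). Its level was 1502, 5308 and 5545 adjusted CPM, a log2 ratio of -1.79 and -1.85 against the other libraries in turn and -0.06 between those. The fold passed in both comparisons, but the interval of the share overlapped that of CONV AsiDNA and Vegfa was therefore not called. The median AT1 cell held 9.01, 54.9 and 52.4 Vegfa counts per 10000. The CONV cells reached from 0 to 93.5, the others from 0 to 144 and 140, so the cells of the 3 libraries overlapped. With every cell thinned to 1000 counts, which left out no cell, 52.0%, 84.9% and 96.2% were above 0, and for Cav1 21.3%, 64.2% and 60.3%. Other genes that were called did not all keep their intervals apart when thinned, as listed in the closing section. In cells with 7 or 8 gate genes Vegfa was at 1960, 5900 and 5749 adjusted CPM. In AT2 cells it was at 205, 184 and 114, in the reverse order.

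**Figure D3:**
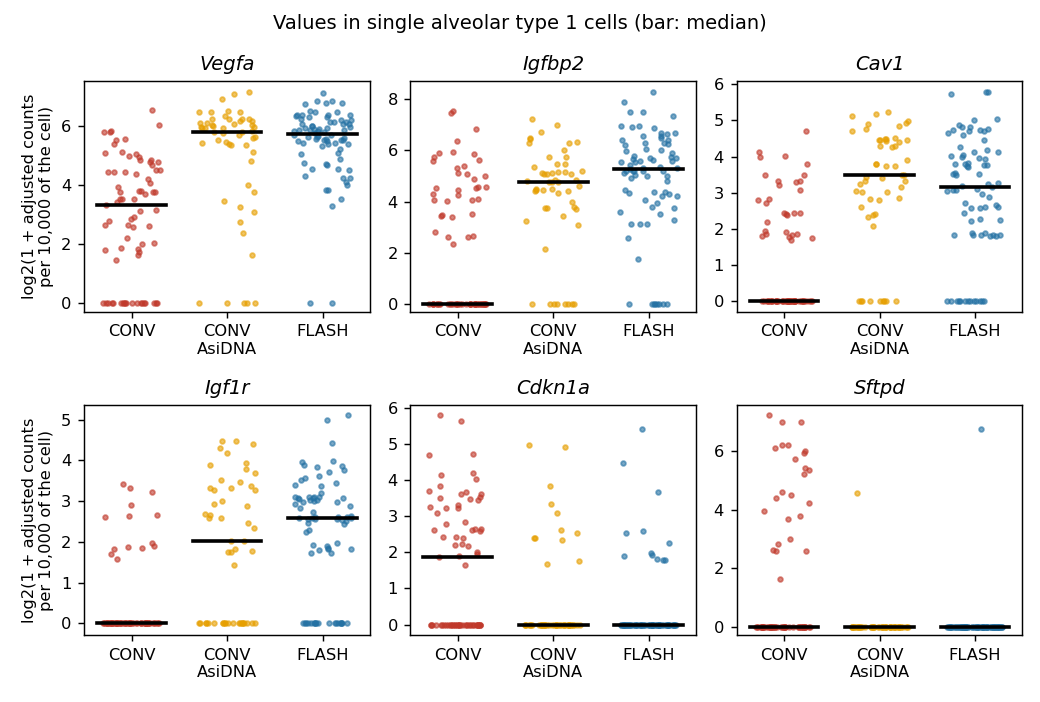
Adjusted counts per 10000 in each AT1 cell, as log2(1 + value), for Vegfa, Igfbp2, Cav1, Igf1r, Cdkn1a and Sftpd in the 3 libraries, with a bar at the median cell. The median is 0 in CONV for Igfbp2, Cav1 and Igf1r, and above 0 only in CONV for Cdkn1a, while Sftpd has a median of 0 in all 3 libraries.

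Most other signals from epithelium to vessels and mesenchyme were also lowest in CONV without being called. Of 44 genes on that list 18 were compared, 14 were lowest in CONV and 1, Shh, was highest there, with median log2 ratios of -0.55 and -0.47. Pdgfa, a growth factor for fibroblasts, was at 249, 631 and 503 adjusted CPM, and Sema3e, a vascular guidance signal, at 418, 871 and 1138. Igfbp2 was the single call on the list, where 1.37% of all 4096 genes were called below and 1500 were lowest. Egfr, the epidermal growth factor receptor, was called below, in 13.3%, 47.2% and 57.7% of cells at 60.3, 214 and 230 adjusted CPM. Its ligand Tgfa was called as well, in 3 of 75, 12 of 53 and 18 of 78 cells at 12.0, 90.9 and 87.5 adjusted CPM, levels of 1 or a few counts per cell. The call of Egfr was kept under 9 of 13 alternatives, lost with Slc34a2 admitted, with 200 adjusted CPM added, with 7 or 8 gate genes and without the surfactant-positive cells, and that of Tgfa under 7.

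Basement membrane genes lay mostly at their lowest level in CONV, but 1 of them passed the call rule. Of 32 genes 19 were compared, and 17 of these were lowest in the CONV AT1 cells, with Lama5 the one that was highest. Among all 4096 genes 1500 were lowest there and 1.37% were called below. The median log2 ratios were -0.78 and -0.75, against -0.08 and 0.06 over all genes. Col4a5, a chain of the alveolar collagen IV network, was the 1 gene called, above 0 in 34.7%, 64.2% and 68.0% of cells at 189, 465 and 540 adjusted CPM. Its call was kept under 9 of 13 alternatives and lost with cells of 2 gate genes or with Slc34a2 admitted, with 200 adjusted CPM added, and without the surfactant-positive cells. Its partners Col4a3 (1036, 2293 and 2111 adjusted CPM) and Col4a4 (1269, 2437 and 2399) were likewise lowest in CONV, with log2 ratios between -0.89 and -1.11. Npnt, an integrin ligand of the alveolar basement membrane, was at 510, 1213 and 1174, and Dag1, the laminin receptor dystroglycan, at 988, 1871 and 2188. Lamb3, a laminin chain, was at 398, 476 and 390. A pair of enzymes that modify collagen were also called below: Plod2 (chr9:92542223-92608428), a lysyl hydroxylase, in 12.0%, 52.8% and 71.8% of cells at 60.3, 385 and 445 adjusted CPM, and P4ha1, a prolyl hydroxylase, in 22.7%, 56.6% and 68.0% of cells at 80.3, 278 and 346. In AT2 cells P4ha1 was at 94.9, 173 and 157, again lowest in CONV.

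Among 51 further AT1 genes, 47 were compared, 32 were lowest and 6 highest in CONV, and 4 were called, all below: Igfbp2, Cav1, Sec14l3 and Scnn1g. Over all 4096 genes 1.37% were called below, and 1500 were lowest and 1493 highest in CONV. The calls of Igfbp2, Sec14l3 and Scnn1g were each kept under 9 of 13 alternatives and lost, among others, without the surfactant-positive cells described below. Sec14l3, a lipid-binding protein, was above 0 in 72.0%, 94.3% and 93.6% of cells at 816, 1962 and 1852 adjusted CPM. Scnn1g, a subunit of the epithelial sodium channel that clears airspace fluid, was above 0 in 45.3%, 81.1% and 80.8% of cells at 386, 1197 and 933. Its partners did not follow as far: Scnn1b was at 297, 652 and 616 and Scnn1a at 1205, 1277 and 1112. Several AT1 genes lay level, among them Ahnak, a scaffold of the cell cortex (2712, 2411 and 2709 adjusted CPM), Hs2st1, a heparan sulfate sulfotransferase (852, 845 and 853), and Cldn18. The median log2 ratios of the list were -0.55 and -0.49, and in cells with 7 or 8 gate genes -0.36 and -0.32.

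Of the genes called below in CONV, 7 of 56 stayed called under all 13 alternatives that kept the call rule: Cav1, Igf1r, Igfbp6, Plod2, Hist1h2bc, Mfge8 and Tppp3. Hist1h2bc, a histone H2B gene, was above 0 in 33.3%, 77.4% and 78.2% of AT1 cells at 209, 1165 and 802 adjusted CPM, against 126, 123 and 91.3 in the remaining cells. Mfge8 (chr7:79133768-79149060, minus strand), which bridges dying cells to phagocytes, was above 0 in 12.0%, 64.2% and 60.3% of AT1 cells at 60.3, 390 and 416. It was at 404, 58.9 and 73.1 in the remaining cells, highest in CONV, and in Cdh5 cells at 0, 98.1 and 95.9, lowest in CONV as in AT1 cells. Tppp3, a tubulin-binding protein best known from ciliated cells, was above 0 in 5.33%, 58.5% and 43.6% of AT1 cells at 32.1, 476 and 270, while the other 5 ciliated markers were at 0. In Cdh5 cells it was at 2.97, 126 and 100. For Mfge8 and Tppp3 the CONV library was thus low in a second cell type, and the part of the library in these differences was not tested.

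Further genes called below in CONV were set beside the remaining cells or Cdh5 cells. The cells set beside a gene vary here and elsewhere, and the remaining cells mix all types outside the AT1 selection. No reading is given for cell types not set beside a gene. The call of Cyp4b1 was kept under 7 of 13 alternatives, those of Cebpb and Fth1 under 9, and those of Ctsl and Rgcc under 12. Cyp4b1, a cytochrome P450, was at 619, 1865 and 1309 adjusted CPM in AT1 cells and at 251, 1255 and 1378 in Cdh5 cells. Ctsl, a lysosomal protease, was at 84.4, 497 and 419 in AT1 cells and at 138, 338 and 349 in Cdh5 cells. Cebpb, a transcription factor of stress responses, was at 68.3, 267 and 412 in AT1 cells, where 8 of 75, 21 of 53 and 41 of 78 cells held it. It was nearly level in the remaining cells, at 802, 804 and 879. Rgcc, a cell cycle regulator, was at 968, 2673 and 3070 in AT1 cells but at 357, 10.6 and 0 in Cdh5 cells, in the reverse order. With gene models, mitochondrial and ribosomal protein genes left out, Fth1, the ferritin heavy chain, was the farthest below, at 32.1, 2090 and 1054 adjusted CPM. It never exceeded 1 count in a CONV AT1 cell. It was at 8219, 4618 and 4462 in the remaining cells, highest in CONV, and at 156, 0 and 0 in Cdh5 cells. When cells with 2 gate genes were admitted, its log2 ratio of CONV to FLASH turned to 0.41.

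Of the 91 genes called above in the CONV AT1 cells, 65 were ribosomal protein genes, taken up below, and 5 were on the list of AT2 genes. Sftpd, the secreted surfactant protein D, was above 0 in 25 of 75 CONV cells (33.3%), 1 of 53 CONV AsiDNA cells (1.89%) and 1 of 78 FLASH cells (1.28%), at 1860, 58.8 and 160 adjusted CPM. Napsa, the protease that matures surfactant protein B, was above 0 in the same numbers of cells, at 534, 5.35 and 32.8. Cldn3, a claudin of AT2 cells, was at 659, 32.1 and 10.9, Npc2, a cholesterol carrier of the AT2 lysosome, at 3065, 310 and 43.8, and Scd1, a fatty acid desaturase, at 1920, 267 and 448. At least 1 of 6 surfactant genes was above 0 in 33 of 75 CONV AT1 cells (44.0%, interval 32.6 to 55.9%) and in 1 cell of each other library, while Sftpc was above 0 in 1 CONV cell and 1 FLASH cell. Of 30 AT2 genes 9 were compared, 5 were called above in CONV, and Dram1 was called below in FLASH, against 2.22% and 0.269% of all genes compared. All 9 were highest in CONV. Genes such as Sftpd and Napsa passed the filter on share mainly through CONV, so these counts were partly fixed by it and nothing further is read from them. The call of Sftpd was kept under 6 of 13 alternatives, and those of Napsa, Cldn3, Npc2 and Scd1 under 7. Each was lost with Slc34a2 admitted, where it was compared, and Sftpd also with at least 2 gate genes, at 1593, 960 and 372 adjusted CPM. The median log2 ratios of the list were 2.24 and 1.98, and the first of these turned to -0.15 without the surfactant-positive cells, which were chosen by 6 genes of that list, and to -0.18 when cells with Slc34a2 were admitted. The same filter on share chose the genes behind these medians, so they are not read as a result. In AT2 cells Sftpd was at 11684, 8537 and 8038. In Cdh5 cells, at median totals of 3862, 3954 and 3898 adjusted counts, Sftpd, Napsa and Scd1 were listed at 0, and nothing is read from this about AT1 cells.

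Among AT1 cells with 7 or 8 gate genes, Sftpd was above 0 in 10 of 39 CONV cells and was listed at 0 in the other libraries, and Napsa was above 0 in 11 of 39 and likewise listed at 0 in the others. Sftpd, Napsa, Cldn3, Npc2 and Scd1 were not compared among cells with 7 or 8 gate genes and so could not be called there. Cldn3 and Npc2 passed the filter on share but were listed at 0 in at least 1 library. Sftpd, Napsa and Scd1 had a mean share below 10%. Npc2 was at 1673, 96.4 and 0 adjusted CPM in those cells, Cldn3 at 396 in CONV and Scd1 at 962 in CONV, both listed at 0 in the other libraries. Without the surfactant-positive cells these genes could not be compared either, and for Sftpd and Napsa, which chose the cells left out, this was fixed beforehand. With the surfactant-positive members left out, 54 genes were called above in CONV and 30 below. Of these, 53 and 23 were also called with all members. The selection removes a droplet in which Slc34a2 is above 0, and the part of AT2 transcripts in the CONV differences was otherwise not tested.

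Cdkn1a (chr17:29090976-29100727), the cell cycle inhibitor p21 and a main target of p53, was higher in the CONV AT1 cells. It was above 0 in 39 of 75 CONV cells (52.0%, interval 40.1 to 63.7%), 12 of 53 CONV AsiDNA cells (22.6%, 12.3 to 36.2%) and 12 of 78 FLASH cells (15.4%, 8.21 to 25.3%). Its level was 615, 224 and 135 adjusted CPM, with log2 ratios of 1.28 and 1.85. Only the CONV library had Cdkn1a in most of its AT1 cells, and in each library the gene was found in cells from 1 count upward. Without the surfactant-positive members the gene was above 0 in 52.4% (22 of 42), 21.2% (11 of 52) and 15.6% (12 of 77), and in cells with 7 or 8 gate genes it stood at 367, 122 and 146 adjusted CPM. In the 36, 11 and 11 cells with 3 to 6 gate genes it was above 0 in 52.8%, 36.4% and 9.09%. Its level there was 914, 730.5 and 35.8 adjusted CPM, so CONV and CONV AsiDNA lay less than 2-fold apart. AT2 cells held 492, 557 and 462 adjusted CPM of Cdkn1a and Cdh5 cells 1810, 1929 and 2426, neither highest in CONV. The call was kept under 9 of 13 alternatives and lost when cells with 2 gate genes or with Slc34a2 were admitted, in the AT1-like cluster, and with 200 adjusted CPM added in place of 50.

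Cdkn1a was the 1 gene called of the 13 p53 targets compared, from a list of 45, and the median log2 ratios of the list were 0.00 and 0.40. Over all genes 2.22% were called above, with medians of -0.08 and 0.06. Ccng1, a cyclin induced by p53, was at 165, 58.8 and 29.2 adjusted CPM, Bax, a pro-apoptotic gene, at 133, 80.2 and 80.2, and Mdm2, the negative regulator of p53, at 36.2, 42.8 and 54.7. These did not pass the call rule, and Mdm2 lay in the opposite order. On the senescence list (9 of 35 compared) Cdkn1a was called above and Igfbp6 below, and Cdkn2b, the inhibitor p15 that AT1 cells normally express, was at 305, 257 and 175 and was not called.

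Genes of the transitional epithelial state lay on both sides, in shares near those of all genes. Of 33 genes 19 were compared, 6 were lowest and 7 highest in CONV, and the calls were Cdkn1a above and Tm4sf1, a tetraspanin-like membrane protein, below (56.2, 267 and 328 adjusted CPM). Of all 4096 genes 2.22% were called above and 1.37% below, and 1500 were lowest and 1493 highest in CONV. The call of Tm4sf1 was kept under 10 of 13 alternatives. Krt8, the keratin that names the state, was above 0 in 72.0%, 71.7% and 55.1% of AT1 cells at 1048, 1400 and 456 adjusted CPM, and its partner Krt18 at 1097, 1427 and 448. Krt8 was highest in CONV AsiDNA, where a single cell held 138 counts, and in cells with 7 or 8 gate genes it was at 984, 681 and 406. Clu, a secreted chaperone of injured epithelium, was above 0 in 40.0%, 17.0% and 3.85% of cells at 1257, 770 and 25.5. The keratins and Clu were lowest in FLASH, but none was called.

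The immediate early genes Fos and Junb were higher in the CONV AT1 cells. Fos was above 0 in 34.7%, 11.3% and 6.41% of cells at 1438, 337 and 120 adjusted CPM, and Junb in 48.0%, 11.3% and 8.97% at 791, 80.2 and 47.4. Both encode AP-1 subunits, which respond within minutes to stress and to tissue dissociation, and both were called. The call of Junb was kept under 11 of 13 alternatives. That of Fos was kept under 8, and was lost with cells of 2 gate genes or with Slc34a2 admitted, in the AT1-like cluster and without the surfactant-positive cells, while at a mean share of at least 25% it was not compared. Of 36 genes 21 were compared and 14 were highest in CONV, with median log2 ratios of 0.66 and 1.16. Among all 4096 genes 1493 were highest in CONV and 2.22% were called above, with medians of -0.08 and 0.06. Without the surfactant-positive members these medians were -0.27 and 0.11, and among genes with a mean share of at least 25% they were -0.42 and 0.12. In Cdh5 cells Fos was at 2766, 712 and 1079 adjusted CPM and Junb at 1465, 369 and 503, so CONV was high in that cell type too, and the part of dissociation in the difference was not tested.

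Interferon and antigen presentation genes had median log2 ratios of 0.72 and 0.41 over the 15 of 48 compared. Leaving out gene models, mitochondrial and ribosomal protein genes, Ly6e, an interferon-induced membrane protein, was the gene farthest above in CONV. It was above 0 in 50.7%, 5.66% and 3.85% of AT1 cells at 864, 32.1 and 47.4 adjusted CPM, and its call was kept under 10 of 13 alternatives. In Cdh5 cells it was nearly level at 2492, 2498 and 2525. Cd74, the invariant chain of MHC class II that AT2 cells also express, was at 2209, 412 and 62.0 and was above 0 in 17 of the 33 surfactant-positive CONV cells but in 7 of the other 42. It was called above in CONV, a call kept under 7 of 13 alternatives, and 2 genes of the list were called against 2.22% of all genes. H2-K1, a class I heavy chain, was at 1434, 834 and 281, and B2m, its light chain, at 229, 935 and 427, in another order.

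Other lists held at most 2 calls. Of 23 junction genes compared Cldn3 was the 1 called, with list medians of 0.06 and 0.05, and Tjp1, the junction scaffold ZO-1, was at 358, 358 and 346 adjusted CPM. Of 12 ion and water transport genes outside the gate Scnn1g was called. Of 18 genes of the YAP/TAZ and TEAD pathway, which keeps AT1 identity under stretch, Mob1a, an activator of the LATS kinases, was called below (2 of 75, 19 of 53 and 21 of 78 cells), a call kept under 7 of 13 alternatives, while Wwtr1, which encodes TAZ, was at 181, 155 and 120. No call was made among 9 TGF-beta genes, 9 clock genes, 3 acute phase genes and 25 lung transcription factors outside the gate. These counts lie near the share of all genes called in CONV (2.22% above and 1.37% below) and show nothing particular to the lists. Nkx2-1, the lung lineage factor, was at 410, 625 and 649 adjusted CPM. Of 22 antioxidant genes Mgst1, a microsomal glutathione transferase, was called above (249, 26.7 and 10.9) and Fth1 below. The call of Mgst1 was kept under 7 of 13 alternatives and was lost with Slc34a2 admitted and with 200 adjusted CPM added, while under the other 4 the gene was not compared. That of Fth1 was kept under 9 and lost with at least 2 or at least 4 gate genes, with Slc34a2 admitted and without the surfactant-positive cells. With at least 4 gate genes Fth1 was at 34.6, 2015 and 1047 adjusted CPM, and without the surfactant-positive cells at 38.8, 1992 and 1047. The fold was about as large in these 2 settings, and only the interval of the share failed. With at least 2 gate genes the fold was lost, at 1520, 2098 and 1130.

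**Figure D4:**
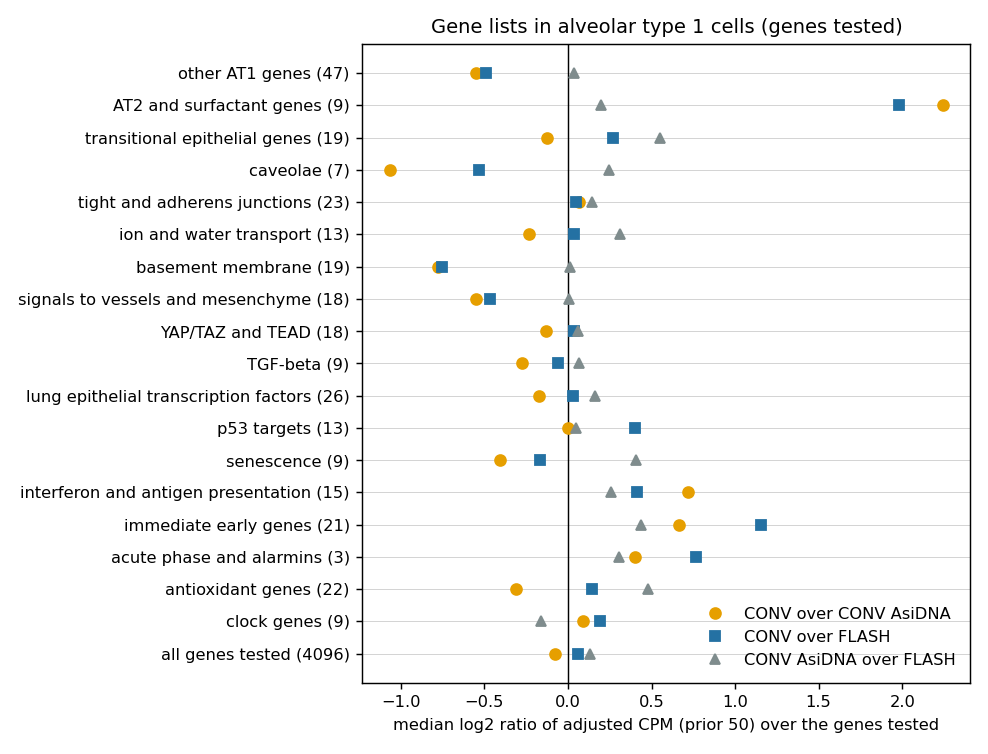
Median log2 ratio (x axis) of the compared genes of each of 18 gene lists and of all 4096 genes, for CONV over CONV AsiDNA, CONV over FLASH and CONV AsiDNA over FLASH. Caveolae, basement membrane, other AT1 genes and signals lie below 0 for both CONV ratios, AT2 genes lie farthest above, and the medians of CONV AsiDNA over FLASH run from -0.16 to 0.55. AT2 genes such as Sftpd and Napsa passed the filter on share mainly through CONV. The ion transport and transcription factor lists each hold 1 gate gene (Aqp5 and Hopx).

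Ribosomal protein genes were 65 of the 91 genes called above in CONV. Of the 83 compared, 81 were highest there, with median log2 ratios of 2.68 and 2.40 and -0.04 between CONV AsiDNA and FLASH. They took up 5.97%, 0.850% and 0.883% of the adjusted counts of AT1 cells, and in cells with 7 or 8 gate genes 4.12%, 0.488% and 0.519%. In AT2 cells they took up 5.32%, 5.95% and 7.72%, and in all cells 19.0%, 17.7% and 19.8%. The contrast was thus found in AT1 and not in AT2 cells. Of 231 genes above 0 in at least 50% of all cells of every library, 10, 57 and 46 were above 0 in under 10% of AT1 cells, against 13, 15 and 14 in AT2 cells. Those listed at 0 in every AT1 cell numbered 8, 8 and 4. Widely expressed genes were therefore found in few AT1 cells far more often in the last 2 libraries, but were not at 0 throughout more often there. The cause was not tested. With ribosomal and mitochondrial genes left out, 27 genes were called above in CONV and 54 below. Of these, 26 and 54 were also called in the main comparison.

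Few genes set the CONV AsiDNA AT1 cells apart from both others. Gdi2, which recycles Rab GTPases, was above 0 in 17.3%, 47.2% and 16.7% of cells at 80.3, 240 and 58.3 adjusted CPM. It was nearly level in the remaining cells, at 265, 285 and 278, and the call was kept under 8 of 13 alternatives and lost, among others, in AT1 cells with 7 or 8 gate genes. H2afj, a histone H2A variant, was above 0 in 57.3%, 1.89% and 17.9% of AT1 cells at 418, 5.35 and 72.9 adjusted CPM, lowest in CONV AsiDNA and also called above in CONV. Its CONV AsiDNA call was kept under 6 of 13 alternatives, and under 3 of the other 7 it was listed at 0 in CONV AsiDNA and was not compared. In AT2 cells it was at 725, 925 and 845, and when cells with Slc34a2 were admitted its ratio of CONV AsiDNA to FLASH turned to 0.41 in log2. The other gene called below in CONV AsiDNA was mitochondrial.

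The FLASH calls above were all 5 mitochondrial. mt-Co1, a cytochrome oxidase subunit, was above 0 in 14.7%, 32.1% and 66.7% of AT1 cells at 44.2, 1887 and 5855 adjusted CPM, and mt-Co3 was at 32.1, 10.7 and 4386. In AT2 cells mt-Co1 stood at 3783, 8592 and 12574, in the same order of libraries. Mitochondrial transcripts took up 0.909%, 0.990% and 3.40% of the adjusted counts of AT1 cells. Leaving out gene models, mitochondrial and ribosomal protein genes, the gene farthest below in FLASH was Npc2, also called above in CONV, at 3065, 310 and 43.8 adjusted CPM. Its FLASH call was kept under 7 of 13 alternatives, lost with Slc34a2 admitted, and under the other 5 the gene was not compared. Among the other genes called below in FLASH, Lars2, the mitochondrial leucyl-tRNA synthetase, was at 1065, 583 and 164 adjusted CPM, and Gm42418, a gene model in the ribosomal RNA repeat, at 32133, 22327 and 10.9. Both were also lowest in FLASH in AT2 cells, at 288, 523 and 186 for Lars2 and at 14233, 22015 and 155 for Gm42418. Epn3, an epithelial endocytosis adaptor, was at 133, 139 and 32.8 in AT1 cells and at 268, 224 and 219 in AT2 cells, and Tomm7, a mitochondrial import subunit, at 329, 219 and 69.3 and at 183, 145 and 142. For Epn3 and Tomm7 the FLASH library was thus lowest in both cell types but 2-fold apart in AT1 cells only, where 8 and 12 of 78 cells held them. The call of Epn3 was kept under 8 of 13 alternatives and that of Tomm7 under 7, both lost in the AT1-like cluster, with 7 or 8 gate genes and without the surfactant-positive cells, among others. The call of Lars2 was kept under 11.

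A further 26 genes past the filter on share were listed at 0 in the AT1 cells of at least 1 library and were not compared, 15 of them in CONV only. Ctsb, a lysosomal protease, was above 0 in no CONV cell, 19 of 53 CONV AsiDNA cells and 15 of 78 FLASH cells. Csf1r, the receptor of macrophage growth factor, was above 0 in 0, 19 and 34 cells while the remaining cells of the 3 libraries held it in 19.7%, 17.3% and 16.8%. Cdh13, an atypical cadherin, was above 0 in 0, 14 and 31 cells, and Sgk1, a kinase that regulates the sodium channel, in 0, 12 and 23. In FLASH only, Ly6c1, a surface antigen, was at 0 and was held by 23 CONV cells and 1 CONV AsiDNA cell. The deposited values had apparently been reduced by a background estimate, so a value of 0 shows only that a gene is listed at 0, and no fold or limit is given for these genes.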

How the data were processed

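Lungs were dissociated and sequenced as 10x 3' libraries. Per the submitters' processing notes, reads were processed with Cell Ranger 6.0.0 on mm10. The authors deposited 1 table per library in natural log units, ln(1 + a whole number, to within 1e-06). The totals per cell were adjusted and the values apparently reduced by a background estimate. How this was done is not given in the sources used. The 3 further tables of the authors' own comparisons (fold changes and p-values) and a table with 12 columns matching no sample were not used.

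Values were turned back to whole numbers and summed over the AT1 cells of each library, per 1000000 adjusted counts, with 50 added before log2 ratios. Genes were compared at a mean share of at least 10%, above 0 in every library. A call needed a 2-fold difference from both other libraries and a share with an exact Clopper-Pearson 95% interval apart from both. The intervals cover counting of cells only. AT2 cells had at least 3 of 8 AT2 genes and Slc34a2 above 0, and none of the other excluding genes. No doublet caller was run and no cell was filtered beyond the deposited tables. Clustering used scanpy 1.11.5 (2000 variable genes, 30 components, 15 neighbours, resolution 1). The scripts (Python 3.11.15, numpy 2.4.6, scipy 1.17.1) were tested on simulated data. Coordinates are from the GENCODE annotation of GRCm38.

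Genes named in the text were the selection genes, members of the 18 gene lists, the 5 called genes farthest above and below in each library (leaving out gene models, mitochondrial and ribosomal protein genes), the 10 farthest above AT2 cells and the 10 most abundant. Other called genes, such as Hist1h2bc, Tppp3, P4ha1, Egfr, Tgfa, Cyp4b1, Ctsl, Cebpb and Rgcc, the genes listed at 0, and mt-Co1, mt-Co3 and Gm42418, were chosen after their values were seen. The members and the lists were chosen with earlier results of these data known. Alternatives changed the number of gate genes, the excluding genes, cell filters, the added value, the share filter, the scaling and the call rule. A lower added value or no share filter could not lose a call.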

Additional observations from a re-analysis of the deposited data

How the results depend on the processing

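No paired analysis was possible because each condition had 1 library. No replicate was left out for the same reason. Depth limits the genes held at 1 or a few counts per cell. Thinning each cell to 1000 counts was not among the 13 alternatives. Under it the CONV interval of the share overlapped that of CONV AsiDNA for Cdkn1a, Fos, Egfr, Col4a5, Sec14l3, P4ha1, Cebpb and Tm4sf1. It overlapped both others for Tgfa and Mob1a, and that of FLASH for Ctsl. For Igfbp6, Igf1r, Igfbp2, Cavin2, Plod2, Junb and Ly6e, among others, it lay apart. In CONV AsiDNA, Gdi2 and H2afj overlapped another library, as Lars2, Epn3 and Tomm7 did in FLASH. The cause of each shift below was not tested.

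The share of AT1 cells in CONV, CONV AsiDNA and FLASH became 2.23%, 1.66% and 1.96% with Slc34a2 allowed, and 1.99%, 1.04% and 2.11% as the AT1-like cluster. In CONV it became 0.612% with at least 7 gate genes. That alternative, the one without surfactant-positive members and the scaling without ribosomal and mitochondrial genes were chosen after seeing the data.

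Numbers in parentheses give the genes also called in the main comparison. Genes called above in CONV numbered 15 (2) with Slc34a2 allowed and 38 (30) in the cluster. They numbered 35 (35) at a mean share of at least 25%, 25 (22) with at least 7 gate genes and 54 (53) without surfactant-positive members. Without ribosomal and mitochondrial genes they numbered 27 (26). Of the 91, 0 stayed called under all 13 alternatives that kept the call rule. Of these genes 87 were not compared under at least 1 of them, the 65 ribosomal protein genes by construction in the one without such genes, and 0 stayed called when only alternatives that compared the gene were counted. For the 56 below, 13 were not compared somewhere and 7 stayed called by either count. Those below in CONV numbered 28 (13) with Slc34a2 allowed and 14 (14) with 200 added. They numbered 28 (25) with at least 7 gate genes and 30 (23) without surfactant-positive members. In CONV AsiDNA, genes above numbered 3 (0) with Slc34a2 allowed, 3 (1) with 10 added and 0 with 200 added. They numbered 2 (1) with no share filter and 7 (1) by fold alone. With at least 7 gate genes they numbered 0, and without surfactant-positive members 2 (1). Those below numbered 1 (1) with at least 2 gate genes, 6 (1) in the cluster and 1 (1) with 200 added. They numbered 17 (2) by fold alone, 1 (0) with at least 7 gate genes and 1 (1) without ribosomal and mitochondrial genes. In FLASH, genes above numbered 3 (3) with Slc34a2 allowed, 3 (2) with at least 7 gate genes and 0 without ribosomal and mitochondrial genes. Those below numbered 5 (2) with Slc34a2 allowed, 4 (1) in the cluster and 3 (3) with 200 added. They numbered 7 (7) at a mean share of at least 25% and 35 (11) by fold alone. With at least 7 gate genes they numbered 3 (3), and without surfactant-positive members 4 (4).

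Among ratios and medians of at least 2-fold, signs changed as follows, in log2. With Slc34a2 allowed, CONV over CONV AsiDNA became -0.18 for the median of the AT2 list, -0.20 for Socs2, -0.21 for Tpt1 and -0.56 for Scd1, CONV over FLASH became -0.16 for Scd1, and CONV AsiDNA over FLASH became 0.41 for H2afj. Without surfactant-positive members the AT2 list stood at -0.15. CONV AsiDNA over FLASH became -0.11 for Ptma with at least 7 gate genes and -0.20 for Tpt1 in the cluster. CONV over FLASH became 0.41 for Fth1 with at least 2 gate genes. Of 3354 log2 ratios of named genes under alternatives, 2893 stayed on their side of 2-fold, 453 crossed it and 8 of the 2340 that had been at least 2-fold changed sign. For 702 list medians these numbers were 675, 25 and 2 of 52. Counting values of any size, 105 ratios and 75 medians changed sign. Among the latter was the immediate early list, whose CONV over CONV AsiDNA median of 0.66 became -0.27 without surfactant-positive members and -0.42 at a mean share of at least 25%.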
